A study of Mus musculus with 4 samples.

Results

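Ribosomal protein genes were described in tumour-associated macrophages sorted from mouse glioblastoma xenografts. They were chosen by name alone. The set holds each protein-coding gene with an Rpl or Rps symbol for a subunit protein of the cytosolic ribosome (with Rplp0, Rplp1, Rplp2 and Rpsa), and each with an Mrpl or Mrps symbol for a protein of the mitochondrial ribosome. The rule took 161 of the 54532 genes in the table (22046 of them protein-coding), of which 83 were cytosolic and 78 mitochondrial. After a filter on low counts, 81 cytosolic and 77 mitochondrial genes were tested. Rpl10l, Rpl39l and Mrpl53 did not pass it. Symbols that do not follow the pattern, such as Fau, Rack1 and Dap3, were kept apart as related genes.

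Messenger RNA was measured in 4 bulk libraries, 2 from control cells and 2 from cells treated with MK-8931 (verubecestat), which blocks the protease BACE1. The cells were sorted as positive for CD45 and CD11b and negative for Gr1 and the dead-cell dye DAPI. The labels give the strain only as GBM mice and no age or genotype, and they name neither the tumour line nor the host's immune state. Their protocols give a treatment lasting 3 days and speak of RNA from glioma stem cells, whereas other entries name sorted macrophages as the cells. How the compound reached the macrophages therefore cannot be read from the labels. The titles number the libraries 1 and 2 in both groups, without saying what a number marks or whether the libraries came from separate animals. The p-values therefore reflect the spread among these 4 libraries alone, and that spread could be purely technical.

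Each cytosolic ribosome is built from a large and a small subunit, whose proteins are needed mostly in equal numbers and are made from many unlinked genes. Their messenger RNAs typically begin with a run of pyrimidines, the terminal oligopyrimidine (TOP) tract, through which mTORC1 and Larp1 set their translation and stability. The mitochondrial ribosome is a separate machine that translates the few proteins encoded in mitochondrial DNA, and all its proteins are encoded in the nucleus. In macrophages both machines carry the protein synthesis behind growth, secretion and respiration.

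The start of the transcript is shown for members that the results below turn on. The annotated GENCODE M21 transcript with the longest opening run was taken for each gene. The lines give its first 20 bases from 5′ to 3′, with the unbroken opening run of C or T in capitals.

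Rpl32: CTTCCTTCTTCCTCggcgct
Rps24: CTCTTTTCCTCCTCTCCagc
Rps3: CCTTTCCTTTCagcggcgcg
Rpl36: CTTCCTgtcccggccgccat
Rps27a: TTTCCgatccgccatcgtgg
Rpl10: CTCTTTTCCTCTggcgcggt
Mrpl54: gacgtaacacggaagtctgc
Mrpl57: CCagagagaccggaagcagc
Mrps25: gcctcccaagattcccggag
Mrpl2: agcgagcacggcgcggagga
Mrpl17: Tgcgcatgcgtcctctgaga

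A run of at least 5 pyrimidines opened at least 1 annotated transcript of 30 of the 81 tested cytosolic genes (37.0%), of 9 of the 77 mitochondrial genes (11.7%) and of 1249 of 12031 other tested protein-coding genes (10.4%). Genes with more transcripts have more chances to match. Among genes with a single annotated transcript the shares were 5 of 27 cytosolic genes (18.5%), 1 of 37 mitochondrial genes (2.70%) and 128 of 3207 others (3.99%). Annotated starts can lie some bases from the start used by the cell, so a missing run says only that these letters do not open the annotated transcript.

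Promoters of both sets shared short motifs. RefSeq promoter windows (build GRCm38.p6, 250 bases before to 50 after the annotated start) were matched by symbol for 63 of the 83 cytosolic and 69 of the 78 mitochondrial members. The ETS-family core CCGGAAG, on either strand, was in windows of 26 cytosolic genes (41.3%) and 26 mitochondrial genes (37.7%). The share was 9.93% over all 27025 genes with windows of the same length. The YY1 core AAGATGGCG was in 4 (6.35%) and 8 (11.6%) against 1.64%. The TATA box letters TATAAA were in 7 (11.1%) and 5 (7.25%) against 15.7%. A gene with several annotated starts, such as Rps21, has several windows and so more chances to match. These matches describe sequence and do not show binding. The stretches below hold an ETS or YY1 match in capitals, on the strand given, for members of each set that appear in the comparisons.

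Rps6 (ETS, chr4:86857441-86857469, minus strand): ttaatctacgcCCGGAAGtaacgcccctc
Rps21 (ETS, chr2:180257342-180257370, plus strand): agtaccctgacCCGGAAGcacttaccgag
Mrpl27 (ETS, chr11:94653725-94653753, plus strand): gtccgcaagacCCGGAAGtagatctatcc
Rpl35a (YY1, chr16:33056478-33056508, plus strand): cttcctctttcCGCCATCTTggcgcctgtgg
Mrps11 (YY1, chr7:78783012-78783042, plus strand): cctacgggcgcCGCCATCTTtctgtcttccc

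Cytosolic members were among the strongly expressed genes, and mitochondrial members were expressed at a far lower level. On the FPKM scale (fragments scaled to gene length and sequencing depth), the cytosolic median was 162.8, with the middle 50% of genes between 88.99 and 273.6. The mitochondrial median was 8.56, with the middle 50% between 5.80 and 15.4. The ratio of the medians was 19.0. Of the 83 cytosolic genes 57 lay above 100 FPKM, and no mitochondrial gene reached 50.

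The stalk protein Rplp1, which helps recruit elongation factors to the large subunit, had the highest level at 840 and 1354 FPKM in control libraries, then 805 and 1045 FPKM under MK-8931. Rps3a1 (mean 735 FPKM), the stalk base Rplp0 (598), Rps15 (550) and Rpl17 (532) followed. The third stalk member, Rplp2, was lower than both partners, with a mean of 142 ± 21.0 FPKM (SD, n = 4). Among mitochondrial genes the highest mean levels were those of Mrpl52 (34.4 FPKM), Mrpl54 (32.2), Mrpl34 (31.9), Mrpl2 (28.7) and Mrps21 (28.6). The first 3 of these means differed by less than the SD over the 4 libraries, which was 6.75 for Mrpl52 and 6.24 for Mrpl34. The lowest tested were Mrps10 (1.37), Mrps35 (1.62) and Mrps30 (2.34).

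**Figure D1:**
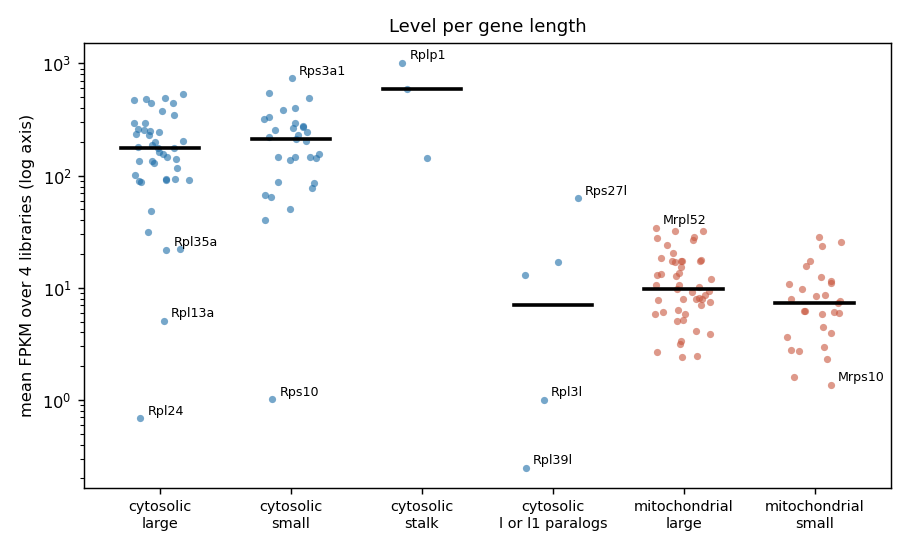
Mean FPKM over the 4 libraries for each gene (points, log axis) by subunit, with the median of all members as a bar. Rpl10l and Mrpl53, listed at 0 in every library, have no point. Cytosolic subunit proteins cluster around 176 (large) and 214 (small) FPKM, with Rpl24, Rps10 and Rpl13a far below, and mitochondrial ones lie between 1.37 and 34.4 FPKM.

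A few essential cytosolic members had counts far below their partners. Rpl24 held 14 and 17 counts in control libraries, then 10 and 13 under MK-8931, a mean of 0.687 FPKM. Rps10, a small-subunit protein near the mRNA entry, held 44, 30, 54 and 51 counts in the same order, and Rpl13a 150, 237, 170 and 258. These are levels of the gene rows and not of the proteins' messages, because reads of near-identical copies may have been split or dropped by the counting. The Rps10 gene overlaps the read-through row RPS10-NUDT3 on the same strand, which held 0 counts, and 4 pseudogene rows of Rps10 held 137 counts against its own 179. For Mrpl53, listed at 0, the overlapping same-strand row Gm42688 held 102 counts over the 4 libraries. In all, 288 pseudogene rows named after 59 cytosolic genes held 22161 counts, 1.00% of the 2213361 counts of the cytosolic members, and 5 rows named after mitochondrial genes held 48.

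Some cytosolic members have a paralog whose symbol adds l or l1 to theirs. Whether a paralog takes its namesake's place in the ribosome was not tested, and the shares below are of mRNA. Rps27l held 31.5% and 32.2% of the summed FPKM of Rps27 and Rps27l in control libraries, then 34.5% and 25.6% under MK-8931. Rpl22l1 held 20.8% and 23.7% of its pair with Rpl22, then 18.2% and 20.6%. Rpl7l1 held 8.09% and 8.05% of its pair with Rpl7, then 8.75% and 6.36%. The ranges of the groups overlapped for Rps27l and Rpl7l1, and both MK-8931 values lay below both controls for Rpl22l1. Rpl3l, the striated-muscle form of Rpl3, held at most 0.779% of its pair in any library, and the testis-enriched Rpl39l at most 0.524%. Rpl10l, a testis retrogene, was listed at 0 in all 4 libraries.

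Facts of the libraries that touch these results are few. Totals lay between 18257930 and 20179875 counts. All 10 macrophage and microglia markers were tested, with a summed level of 6996 to 7344 CPM (counts scaled to library size) over the libraries. Single markers moved more than the sum. With MK-8931, 3 had fitted values above 0 and 7 below. Itgam was called higher (220 and 180 CPM in control libraries, then 328 and 345 CPM, adjusted p = 0.0485 by edgeR), and 0 were called lower. The lowest value was that of P2ry12 (log2 fold change -0.66). The summed level of 12 neutrophil markers was 84.9 and 84.7 CPM in control libraries, then 549 and 924 CPM under MK-8931, and all 8 that were tested rose, although the gate excluded Gr1. Of the neutrophil markers not tested, Elane was at 0 in each library, and Ly6g held 14 counts in MK-8931 2 and 0 in each other library. Ngp held at most 7 counts per library and Camp at most 3. Lymphocyte markers summed to at most 1.998 CPM (Nkg7 and Klrb1c at 0), dendritic cell markers to 8.73 to 18.3 CPM, red cell and platelet markers to at most 2.05 CPM. Endothelial, fibroblast and glial markers summed to 355 and 186 CPM in control libraries, then 353 and 474 CPM under MK-8931 (Olig2 and Sox2 at 0). Their part in the results below was not tested. In bulk RNA, fewer cells of a type and less RNA per cell cannot be told apart.

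MK-8931 changed no ribosomal protein gene past the threshold in the fit with treatment alone. The question was whether the inhibitor shifted the cytosolic and the mitochondrial set, and in edgeR's quasi-likelihood test, adjusted over 13932 genes, 0 of 81 cytosolic and 0 of 77 mitochondrial genes rose or fell. Over all genes 120 rose (0.861%) and 19 fell (0.136%). DESeq2's Wald test on the same counts also called 0 in both sets. Of the 12851 genes that it gave an adjusted p, 2.07% were higher and 0.747% lower. At an unadjusted p under 0.05 the first test had 0 cytosolic and 4 mitochondrial genes, namely Mrpl2, Mrpl17, Mrpl44 and Mrps11. These 4 are 5.19% of the mitochondrial genes, beside 10.8% of all genes at that level. That fit counts the difference by number, described below, as spread within the groups. Larger shares of both sets than of all genes differed by number, so the low share does not measure the response to treatment. The smallest adjusted p was 0.521 in the cytosolic and 0.281 in the mitochondrial set.

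The cytosolic set was centred on no change. Its median log2 fold change was -0.0042, beside -0.003 for all genes tested, and the middle 50% lay between -0.0844 and 0.0748. Of the 81 genes 40 were above 0 (background 49.6%). The large-subunit median was 0.0038 (43 genes), the small-subunit median 0.0219 (31 genes) and the stalk median 0.0638 (3 genes). Both MK-8931 libraries lay above both controls for 6 genes (background 21.2%) and below them for 3 (background 20%). A gene whose libraries numbered 2 both exceed those numbered 1 cannot also be separated by treatment. That was so for 70 of the 81 genes, as given below, so these low shares do not measure the response to treatment.

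The cytosolic gene with the smallest p was Rps26, a small-subunit protein at the mRNA exit channel (chr10:128624534-128626747, GRCm38). Its level was 354 and 363 CPM in control libraries, then 409 and 447 CPM under MK-8931, and the log2 difference was 0.25 (SE 0.12, adjusted p = 0.521 by edgeR). The groups did not overlap. Rpl29, a heparin-binding large-subunit protein, had 83.6 and 99.5 CPM in control libraries, then 107 and 110 CPM under MK-8931, and Rps4x, the X-linked small-subunit protein, 580 and 656 against 685 and 725 CPM. For Rpl28 (272 and 337 against 334 and 392 CPM) the groups overlapped. In the other direction Rps29 had 187 and 185 CPM in control libraries, then 132 and 181 CPM under MK-8931, a log2 difference of -0.25 carried mostly by 1 library. Rplp1 read 421 and 674 CPM against 404 and 526 CPM, and the groups overlapped. The largest fitted difference was that of Rpl3l, -0.92 (SE 0.60), at levels of 0.770 to 2.61 CPM. All 4 tested paralogs named l or l1 had fitted values below 0, with a median of -0.22, and 0 of 4 passed.

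The mitochondrial set sat slightly lower, and whether its median differs from 0 was not tested. The median log2 fold change was -0.0767, with the middle 50% between -0.219 and 0.0527, and 32 of 77 genes were above 0. The large-subunit median was -0.113 over 48 genes and the small-subunit median 0.0023 over 29. Both MK-8931 libraries lay below both controls for 14 genes and above for 5, under the background shares of 20% and 21.2%. Here too, separation by number, seen for 54 genes, precludes separation by treatment, so no conclusion is drawn from these shares. Of the 14 there were 10 in the large subunit. With the replicate number in the fit the median was -0.069. The signs depended on which library was left out, but each such fit leaves the replicate numbers unbalanced between the groups. The difference by number, described below, then enters the comparison, so these values cannot show how stable the medians are. The mitochondrial median was -0.301 without control 1, 0.162 without control 2, 0.062 without MK-8931 1 and -0.253 without MK-8931 2. The cytosolic median was -0.204, 0.264, 0.169 and -0.204 in the same order, so leaving out either control 2 or MK-8931 1 put both medians above 0.

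Mrpl2, a large-subunit protein (chr17:46646229-46650139), had the smallest p in the set. It was measured at 37.2 and 41.2 CPM in control libraries, then 26.6 and 29.6 CPM under MK-8931. The groups did not overlap, and the log2 difference was -0.48 (SE 0.16, adjusted p = 0.281 by edgeR). Mrpl17 (chr7:105803206-105811099), at the large subunit's exit tunnel, was measured at 44.7 and 60.5 CPM against 34.4 and 38.3 CPM, with a log2 difference of -0.53 (SE 0.18, adjusted p = 0.292 by edgeR). Without control 1 the Mrpl17 difference was -0.74 and passed (adjusted p = 0.00852 by edgeR). Mrpl44, which carries an RNase III-like fold, read 19.9 and 20.8 against 14.2 and 15.6 CPM. Mrps11 read 14.1 and 16.5 against 11.1 and 9.08 CPM, with the lowest fitted value of the set at -0.60 (adjusted p = 0.345 by edgeR). Mrpl46, a member of the same set, overlaps Mrps11 on the opposite strand and held 1089 counts against 968 for Mrps11. Without stranded counting, reads in the stretch that both share cannot be told apart. Among higher values Mrps21, which read 15.9 and 21.4 against 21.8 and 25.9 CPM, had a log2 difference of 0.35 (adjusted p = 0.637 by edgeR), and Mrpl10 read 31.8 and 32.7 against 36.2 and 38.9 CPM.

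The libraries separated by replicate number instead. In both groups the library numbered 2 held more ribosomal protein mRNA of both kinds than the library numbered 1. The cytosolic genes took 2.48% and 3.24% of all counts in controls 1 and 2, and 2.61% and 3.28% in MK-8931 1 and 2. The libraries numbered 1 averaged 2.55% ± 0.0931 and those numbered 2 averaged 3.26% ± 0.0328 (SD, n = 2 each), while the treatment groups averaged 2.86% ± 0.535 and 2.95% ± 0.475. The mitochondrial genes took 0.162% and 0.205% in control libraries, then 0.159% and 0.197% under MK-8931. Library 2 over library 1 was 1.31-fold (control) and 1.26-fold (MK-8931) for the cytosolic share, and 1.27-fold and 1.24-fold for the mitochondrial one. The cytosolic share over the mitochondrial share was 15.3 and 15.8 in control libraries, then 16.4 and 16.7 under MK-8931, so this ratio separated the treatment groups, by less than 1 unit between their means, and differed little between numbers. The gap of 0.96 between the group means is set beside SDs of 0.332 and 0.203 (n = 2 each) and was not tested.

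**Figure D2:**
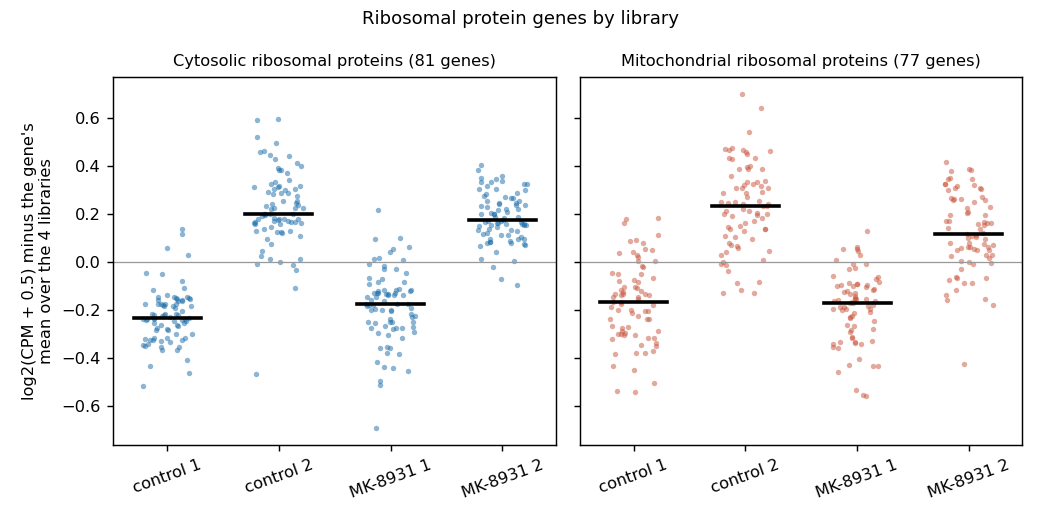
Each point is 1 gene's log2(CPM + 0.5) minus that gene's mean over the 4 libraries, by library, for cytosolic and mitochondrial genes, and bars are medians. In both sets the libraries numbered 1 lie mostly below 0 and those numbered 2 mostly above, in the control and in the MK-8931 group.

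Gene by gene the same order held within each group. Control 2 was above control 1 for 79 of 81 cytosolic genes, by a median of 0.4516 on the log2 scale, and MK-8931 2 was above MK-8931 1 for 78, by 0.3648. For the mitochondrial genes the counts were 74 and 70 of 77, with medians of 0.3816 and 0.2918. Library 2 was above library 1 in both groups for 76 cytosolic genes (93.8%) and 68 mitochondrial genes (88.3%), against 30.9% of all genes. At matched numbers the treatment differences were small: the cytosolic median was 0.0593 between the libraries numbered 1 and -0.0322 between those numbered 2, and the mitochondrial medians were -0.0231 and -0.1276.

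In a fit with treatment and replicate number, 40 of 81 cytosolic genes (49.4%) were higher in the libraries numbered 2 and 0 lower. Over all genes 198 (1.42%) were higher and 147 (1.06%) lower. The cytosolic median log2 fold change was 0.40, with the middle 50% between 0.283 and 0.528, beside -0.0054 for all genes, and 80 of 81 genes were above 0 (background 49.3%). Rps10, at -0.30 and under 3 CPM, was the exception. Both libraries numbered 2 lay above both numbered 1 for 70 genes (background 19.8%) and below them for 0. The fit has 3 coefficients for 4 libraries and so a single residual degree of freedom. Without the treatment term, edgeR called 0 ribosomal protein genes and 1 gene in all, 0.00718% of those tested (adjusted p = 0.414 for Rpl36 and Rps14), so the calls were made only with treatment in the fit. DESeq2's Wald test called 45 cytosolic genes in the fit with both terms. It gave an adjusted p to 6369 of the 13932 genes, and the background among those was 2.37% higher and 1.85% lower.

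Large-subunit genes gave 23 of the 40 calls (of 43 genes), small-subunit genes 15 (of 31), the stalk 1 and the paralogs 1. Rpl36, whose transcript start is shown above (chr17:56613416-56614243), was measured at 126 and 234 CPM in controls 1 and 2 and at 114 and 209 CPM in MK-8931 1 and 2. Both libraries numbered 2 stood well above both numbered 1, and the log2 difference was 0.89 (SE 0.0881, adjusted p = 0.00108 by edgeR). Rps14, part of the small subunit's platform, had 255 and 531 CPM, then 256 and 440 CPM, a log2 difference of 0.92 (adjusted p = 0.00121 by edgeR). Rps3, which lines the mRNA entry, had 506 and 868 CPM, then 476 and 787 CPM (0.75, adjusted p = 0.00252 by edgeR). Rps27a, which is made fused to ubiquitin, had 223 and 372 CPM, then 206 and 356 CPM, a log2 fold change of 0.76.

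The calls took in proteins of many places in the ribosome. Rpl17 had 320 and 538 CPM in control libraries, then 294 and 504 CPM under MK-8931. Rpl32, with the opening run of 14 pyrimidines, had 283 and 484 CPM, then 270 and 416 CPM. Rpl35a had 51.3 and 104 CPM, then 59.5 and 92.4 CPM. Each was higher in both libraries numbered 2. Rpl5 and Rpl11, which also bind the p53 regulator Mdm2 when free of the ribosome, had log2 fold changes of 0.49 and 0.60. The very short protein Rpl41 had 0.71, Rpl9 0.66 and Rps21 0.69. Rplp1 had 0.53 and passed, while its partners Rplp0 and Rplp2 did not. Rps6, the substrate of the ribosomal S6 kinases, had 0.37 (adjusted p = 0.0446 by edgeR), near the lower end of the called values. The paralog Rpl22l1 had 22.8 and 35.1 CPM, then 17.7 and 28.8 CPM (0.66), and its namesake Rpl22 had 0.43, so both of that pair passed.

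A smaller group of abundant cytosolic genes barely differed by number. Rpl10, the late-joining protein beside the tRNA sites, had 921 and 953 CPM in control libraries, then 1002 and 1022 CPM under MK-8931, a log2 fold change of 0.04 by number. Rps26 had 0.08, Rps4x 0.13 and Rpl29 0.15, none of which passed. Rpl10 has an opening run of 12 pyrimidines. Over the set, genes with an opening run of at least 5 had a median difference by number of 0.361 and the 51 without it 0.413. The difference between these medians was not tested.

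In the mitochondrial set 9 of 77 genes (11.7%) were higher in the libraries numbered 2 (background 1.42%) and 0 lower (background 1.06%), with a median log2 fold change of 0.3285 and 75 genes above 0. Both libraries numbered 2 lay above both numbered 1 for 54 genes and below for 0 (background 19.8% each way). The calls were Mrpl13, Mrpl14, Mrpl20, Mrpl27, Mrpl54 and Mrpl57 of the large subunit (6 of 48) and Mrps14, Mrps18c and Mrps25 of the small subunit (3 of 29). Mrpl14 was measured at 11.3 and 24.3 CPM in control libraries, then 10.5 and 19.4 CPM under MK-8931, a log2 difference of 1.00 (SE 0.18, adjusted p = 0.0169 by edgeR). An opposite-strand gene overlaps Mrpl14 and held 2536 counts against its own 1245. Mrpl54, which no annotated gene overlaps, had 17.6 and 34.9 CPM, then 22.2 and 32.2 CPM (0.76, adjusted p = 0.0259 by edgeR). Mrpl57 had 13.6 and 24.1 CPM, then 12.7 and 21.5 CPM, and Mrps25 14.6 and 23.6 CPM, then 14.6 and 24.8 CPM. For each of these 4 genes the libraries numbered 2 stood apart from those numbered 1. The exceptions to the direction were Mrps6 (-0.07) and Mrps11 (-0.02). DESeq2's Wald test called 1 mitochondrial gene. It gave an adjusted p to 6369 of the 13932 genes, and how many mitochondrial genes were among them was not counted. The share called was lower in the mitochondrial than in the cytosolic set while the medians were close, and the mitochondrial genes have fewer counts behind each value. Whether the sets differ in their response to number was not tested.

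**Figure D3:**
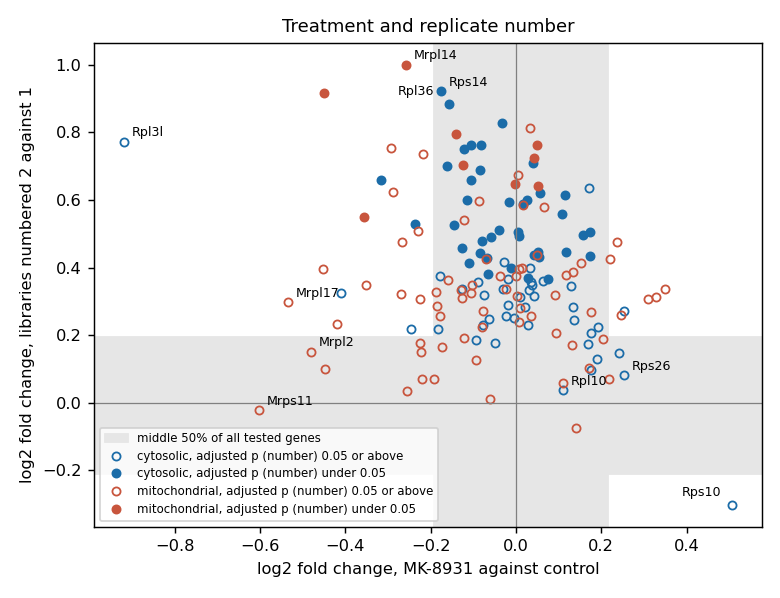
Log2 fold change with MK-8931 (x axis) against log2 fold change between libraries numbered 2 and 1 (y axis) for each tested ribosomal protein gene. Filled points passed the number comparison, and grey bands hold the middle 50% of all tested genes. The genes spread around 0 along x, and all but Rps10, Mrps6 and Mrps11 lie above 0 along y.

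Transcript length moved with the difference by number. Ribosomal protein transcripts are short, with a median of 775 bases in the cytosolic and 1197 in the mitochondrial set against 2823 in 12031 other protein-coding genes. Among those others the median log2 fold change by number was 0.356 for transcripts up to 500 bases (112 genes, 15.2% called higher), 0.287 from 500 to 750 bases, 0.263 from 750 to 1000 bases, 0.207 from 1000 to 1500 bases, and -0.083 above 2500 bases (6940 genes, 0.0865% called higher). The cytosolic medians in the first 4 of these bins were 0.487, 0.415, 0.364 and 0.376, each above that of other genes of like length. Of 891 other genes of up to 1000 bases 80 were called higher (8.98%). Spearman's rho between length and the difference, given as a description over genes of the same libraries, was -0.28 in the cytosolic, -0.26 in the mitochondrial and -0.45 in the other genes. It was 0.04, 0.10 and 0.01 for GC content.

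When a trend on transcript length, fitted on genes outside both sets, was taken out of each library, the differences by number were smaller. The cytosolic median went from 0.397 to 0.146 and the mitochondrial one from 0.329 to 0.170. The genes called higher went from 40 to 12 in the cytosolic set and from 9 to 4 in the mitochondrial set, beside a background of 0.61% higher and 0.639% lower. The 12 were Rpl5, Rpl9, Rpl11, Rpl17, Rpl32, Rpl35, Rpl35a, Rpl36, Rpl41, Rps3, Rps14 and Rps27a, all of them among the 40. Rps14 had 0.63 (adjusted p = 0.000252 by edgeR), Rps3 0.65 (adjusted p = 0.000116 by edgeR) and Rpl36 0.55 (adjusted p = 0.00149 by edgeR) after this step. The 4 mitochondrial genes were Mrpl11, Mrpl57, Mrps16 and Mrps25, of which 2 were among the 9. The setting was chosen after the data were seen.

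**Figure D4:**
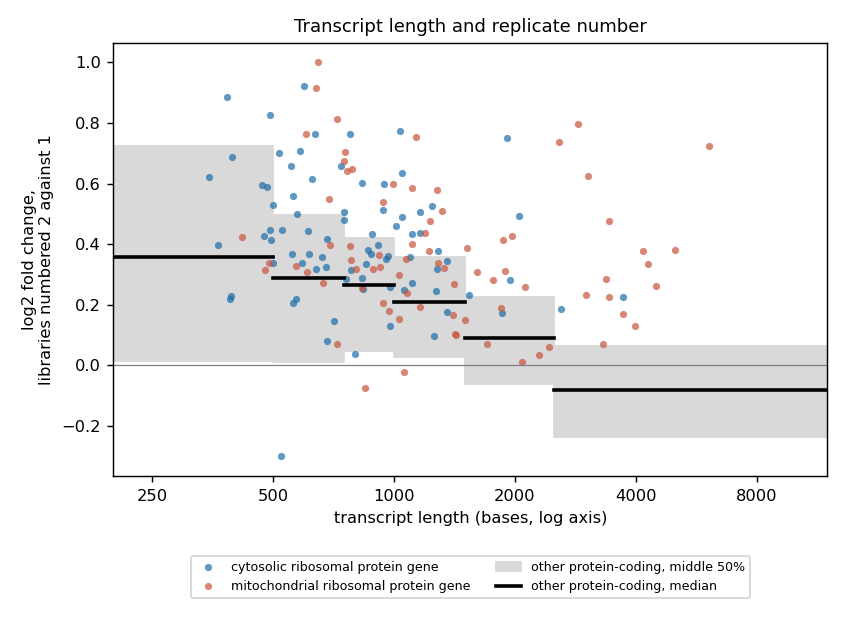
Log2 fold change between libraries numbered 2 and 1 against transcript length (log axis) for ribosomal protein genes (points), over the median and middle 50% of other protein-coding genes in length bins. The black medians go from 0.356 in the shortest bin to -0.083 in the longest, and most ribosomal protein genes lie above the median of their bin.

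No marker sum of another cell type was higher in the library numbered 2 of both groups. The summed neutrophil markers were 84.9 and 84.7 CPM in controls 1 and 2 and 549 and 924 CPM under MK-8931. Most of the control sum was Csf3r (64.2 and 56.5 CPM), and single markers did not all follow it. S100a8 read 2.10 and 6.18 CPM and S100a9 1.51 and 4.85 CPM in controls 1 and 2. Both were higher in the libraries numbered 2 (log2 fold changes of 1.36 and 1.53, adjusted p = 0.0027 and 0.000289 by edgeR). Of the 8 tested neutrophil markers, 7 had fitted values above 0 by number and 1 did not, and these 2 were called higher (background 1.42%). The part of these cells in the difference by number was not tested. The endothelial, fibroblast and glial sum was lower in control 2 than in control 1 and higher in MK-8931 2 than in MK-8931 1. Mitochondrially encoded transcripts, which include the messages that the mitochondrial ribosome reads, took 1.10% and 1.38% of counts in control libraries, then 1.24% and 1.36% under MK-8931, so they too were higher in the library numbered 2 of each group.

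Genes that build and run ribosomes were taken from 8 lists. None of their tested members passed the comparison of MK-8931 with control. Of the cytosolic ribosomal proteins with other names, Fau, made as a fusion with a ubiquitin-like protein, had 354 and 498 CPM in control libraries, then 372 and 531 CPM under MK-8931. It was higher in the libraries numbered 2 (log2 fold change 0.50, adjusted p = 0.0153 by edgeR), while Rack1 (0.36) did not pass, and Rpl36al was at 1.18 to 1.39 CPM. Of 5 mitochondrial ribosomal proteins with other names, Chchd1 was higher by number (0.78, adjusted p = 0.0374 by edgeR).

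Nucleolar assembly factors had a median log2 fold change of -0.117 under MK-8931 over 38 genes, 9 of them above 0. Nip7, a factor of large-subunit assembly, read 20.1 and 25.9 CPM in control libraries, then 13.7 and 19.7 CPM under MK-8931, and Utp20, of the small-subunit processome, 49.7 and 39.4 against 55.7 and 51.8 CPM. The groups did not overlap for either gene. RNA polymerase I and its factors had a median of -0.061 (15 genes) and translation factors -0.066 (37 genes). Pabpc1, the poly(A)-binding protein and itself a TOP message, read 915 and 906 against 1023 and 1024 CPM (log2 fold change 0.17, adjusted p = 0.704 by edgeR). By number, 0 of 38 assembly factors and 0 of 15 polymerase I genes passed, with medians of 0.141 and -0.0235. Of 37 translation factors 3 were higher (background 1.42%), namely Eef1b2 (0.64), Eif3h (0.47) and Tpt1 (0.46). Over the list 28 genes were above 0 by number and 9 were not, and Pabpc1 had -0.006.

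Mitochondrial translation and ribosome assembly factors had a median of -0.0142 under MK-8931 over 33 genes and 0.1635 by number, with 0 called in both. Mrrf, the mitochondrial ribosome recycling factor, read 7.54 and 9.35 CPM in control libraries, then 12.1 and 13.1 CPM under MK-8931 (log2 fold change 0.58, adjusted p = 0.406 by edgeR). Of 17 mitochondrial aminoacyl-tRNA synthetases 1 passed by number. It was Lars2, lower in the libraries numbered 2 (background 1.06%) at 1163 and 723 CPM in control libraries, then 1128 and 875 CPM under MK-8931 (log2 fold change -0.53). Lars2 stood far above the rest of the list, where the next highest, Iars2, lay between 72.6 and 85.8 CPM. Whether all Lars2 counts come from the synthetase message was not tested. Of 19 regulators of TOP messages and ribosomal protein kinases, 1 was called lower by number (background 1.06%) and 0 higher. It was Larp1, which binds the cap and the tract of these messages, at 229 and 167 CPM, then 223 and 174 CPM (log2 fold change -0.41, adjusted p = 0.0325 by edgeR). The list's median by number was -0.0952. Other protein-coding transcripts above 2500 bases had a median of -0.083, and the list was not compared with genes of like length.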

How the data were processed

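Raw counts per gene and FPKM values were deposited by the authors, per the file headers. FPKM is a rescaled count (a constant per library over gene length), so it was used for levels and not tested. Another 4 columns of per-sample values were not used. CASAVA and mm9 are named in the submitters' processing notes, but gene coordinates matched GENCODE M21 of GRCm38 for 53585 of 54495 shared identifiers (98.3%), and GRCm38 is used here. Which aligner and counter were used, and whether strand was counted, is not given in the sources used here. No library was a second deposit of another, since chi-square over its degrees of freedom was 29.7 between controls and 17.1 between MK-8931 libraries.

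Counts were tested with edgeR 4.0.16 in R 4.3.3 (TMM, filterByExpr with a minimum count of 10, robust quasi-likelihood F test, two-sided, Benjamini-Hochberg over 13932 genes, threshold 0.05), after a test on simulated data. CPM values are TMM-scaled, log2 fold changes are fitted, and the SE is their size divided by the square root of F. The number comparison is the coefficient of the replicate number beside treatment. With 2 against 2 libraries a single value cannot reach an exact permutation p below 0.333. DESeq2 1.42.0, other scalings, no filter, a replicate block, pseudogene counts added, each library left out and a transcript-length offset (lowess, span 0.3) were tried. Transcript lengths and starts came from GENCODE M21 and promoters from RefSeq.

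The members and lists were chosen with earlier results of these data known. Named genes were all members past the threshold, the 6 smallest p in each direction and set for MK-8931 and the 4 for number, the 5 highest and 3 lowest FPKM, members with paralogs, and the 2 smallest p in each direction from each list. A few of these are not reported here. Members named outside this rule were chosen after their values were seen.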

Additional observations from a re-analysis of the deposited data

Results flagged for a closer look

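The median log2 difference of the cytosolic ribosomal protein genes between MK-8931 and control had opposite signs at the 2 replicate numbers. It was 0.06 between the libraries numbered 1 (55 of 81 genes above 0) and -0.03 between those numbered 2 (30 of 81 above 0). Each value compares 1 library with 1 library, and the difference between the numbers was not tested.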

How the results depend on the processing

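The count of genes called with MK-8931 depended strongly on the setting, while the ribosomal protein genes gave between 0 and 2 calls per set and direction under every alternative run. Over all genes, those called higher went from 120 to 266 (DESeq2's Wald test), 366 (no filter on low counts), 468 (replicate block), 272 (transcript length offset) and 85 to 520 (each library left out), and those called lower from 19 to 96, 176, 275, 109 and 10 to 243 in the same order. Cytosolic genes called lower with MK-8931 ranged from 0 to 1 and mitochondrial ones from 0 to 1 when a library was left out. These were Rplp1 (-0.54, adjusted p = 0.0242 by edgeR) and Mrpl17 (-0.74, adjusted p = 0.00852 by edgeR), both without control 1. Cytosolic genes with other names ranged from 0 to 1. The lone sample left in a group is assumed to vary like the other group. Leaving out a library also leaves the replicate numbers unbalanced, so the difference by number enters these fits. Single libraries also moved the fitted values for MK-8931 of Rpl22l1 (-0.719 to 0.028), Rpl30 (-0.405 to 0.069), Rplp1 (-0.544 to 0.142) and Rps19 (-0.419 to 0.1), each above 0 only without control 2. Without the treatment term Mrps11 by number was 0.024, a change of sign.

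The replicate numbers were not taken to pair the samples, since the labels do not say what they share and there are only 2 pairs. The differences between libraries 2 and 1 correlated across genes between the groups with r = 0.219 (13932 genes, which are not independent), 0.687 in the cytosolic and 0.446 in the mitochondrial genes. With the replicate block, 2 mitochondrial genes were lower with MK-8931, Mrpl17 (adjusted p = 0.0298 by edgeR) and Mrpl2 (adjusted p = 0.0492 by edgeR), and 0 cytosolic genes were called. Over all genes that fit called 3.36% higher and 1.97% lower, so 2 of 77 is near the background. With the replicate block and transcript length offset together, 2 mitochondrial genes (the same genes) were lower and 2 cytosolic genes higher, Rpl28 (adjusted p = 0.0260 by edgeR) and Rps26 (adjusted p = 0.0285 by edgeR), beside 4.47% of all genes higher and 2.99% lower. The settings with the transcript length offset were chosen after the data were seen.

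By number, cytosolic genes called higher went from 40 to 12 with the transcript length offset and 0 without the treatment term, and the median from 0.397 to 0.146 with that offset. Mitochondrial ones went from 9 to 1 (DESeq2's Wald test), 14 (DESeq2 size factors), 20 (no filter), 4 (transcript length offset) and 0 (without the treatment term), and the median from 0.329 to 0.170 with the offset. The Wald test gave an adjusted p to 6369 of the 13932 genes. As a share of summed FPKM in place of counts, the difference between numbers went from 0.7143 to 1.154 percentage points for the cytosolic and from 0.0403 to 0.0517 for the mitochondrial set. The cause of these changes was not tested beyond the settings themselves.

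With each library left out, the median with MK-8931 ranged from -0.306 to 0.168 for mitochondrial ribosomal proteins with other names, -0.202 to -0.018 for nucleolar assembly, -0.205 to -0.041 for RNA polymerase I, -0.198 to 0.033 for translation factors, -0.130 to 0.096 for mitochondrial translation, -0.134 to 0.021 for the mitochondrial synthetases and -0.047 to 0.127 for the regulators of TOP messages. Few counts limit the weakest members, such as Rpl24 at 10 to 17 counts per library.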
